A study of Mus musculus with 8 samples.

Results

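Plasmacytoid dendritic cells (pDC) are rare leukocytes that sense viral and self nucleic acids in their endosomes. Among the 10256 cells kept from mouse paw joints, 51 were pDC by the presence of Siglech transcripts. Siglech encodes Siglec-H, a surface lectin of mouse pDC. A cell was a member when it held at least 2 Siglech UMIs (unique molecular identifiers, each standing for 1 captured transcript), at most 1 UMI of the B cell gene Cd79a, and at most 1 UMI of Cd3d, Cd3e, Cd3g and Trac together. The calprotectin genes S100a8 and S100a9, which fill neutrophils, also had to make up less than 5% of its UMIs. The levels of these genes chose the members and were therefore not tested.

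The cells came from arthritic C57BL/6 mice. Serum of K/BxN mice, which holds arthritogenic antibodies, was injected at the start (day 0) and again 2 and 9 days later. Monocytes taken from other arthritic mice were transferred on day 12 after a 90 min incubation with vehicle (Mono) or with maresin conjugate in tissue regeneration 3 at 1 nM (Mono+MCTR3). CD45+ cells were sorted from the paw joints on day 22 and profiled with 10x Genomics 3′ libraries, from 4 mice per group. All mice therefore had arthritis and a transfer of monocytes, so that neither healthy joints nor arthritic joints without transferred cells were compared. A transferred cell and a host cell could not be told apart in these counts.

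Background on the cell type helps in reading the genes below. pDC arise in bone marrow under the transcription factor TCF4 (E2-2), express lymphoid genes such as parts of the immunoglobulin locus, and enter tissue from blood. They sense RNA through Toll-like receptor 7 and DNA through Toll-like receptor 9, and are known for large bursts of type I interferon, a cytokine family linked with autoimmune disease. At rest they carry little MHC class II, the complex that presents antigen to T cells, compared with conventional dendritic cells.

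The members were sampled more deeply than B cells, T cells and neutrophils. Their median was 5574 UMIs and 1958 genes per cell, against 2257.5 UMIs in 1388 B cells, 7043 in 65 MHC class II-high dendritic-like cells, 3570.5 in 752 T cells and 1780.5 in 6578 neutrophils. In all they held 296246 UMIs, so that 3 UMIs corresponded to 10.1 counts per 1000000 UMIs (CPM). Per mouse the members' UMIs ran from 10588 to 120025. The deposited tables tell mice apart only by a barcode suffix, which the labels do not tie to a mouse, and a p-value measures the spread between suffixes. The table of each group was aggregated separately, which bears on any level set across the groups.

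Every one of the 51 kept cells with at least 2 Siglech UMIs passed the other limits. Their Siglech count ran from 2 to 20 UMIs with a median of 10. Just inside the limit were 3 members with exactly 2 UMIs, of which 2 carried at least 3 of the 4 other markers Bst2, Cox6a2, Klk1 and Tsc22d1. Just outside were 3 cells with 1 Siglech UMI that passed every other limit, and 1 of them did. Over all members, 46 of 51 carried at least 3 of these 4 markers. The same was seen in 3 of 1388 B cells and in no dendritic-like cell, T cell or neutrophil. A doublet caller (Scrublet) marked 52 of the 10256 cells, a share of 0.507%, and none of them was a member. No member's barcode occurred in another library, although pairs of libraries shared up to 8 barcodes.

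Some defining genes of several other lineages were at 0 in the members. The B cell genes Pax5 and Fcmr were at 0, as were all 5 fibroblast genes. Of 12 monocyte or macrophage genes C1qa, C1qb, C1qc, Fn1, F13a1 and Adgre1 were at 0. The other 6 were seen, with Lyz2 at 89 UMIs and Ms4a6c at 28. The 12 genes summed to 435 CPM, against 331 CPM in B cells and 12439 in dendritic-like cells. Of 10 T cell genes 6 were at 0, of which Cd3d, Cd3e, Cd3g and Trac were limited by the rule and Trbc1 and Bcl11b were not. The 11 B cell genes summed to 348 CPM in the members and 32023 CPM in B cells, but this sum includes Cd79a, which the rule limited in members and the selection of B cells required. Some conventional dendritic cell genes were not scarce. Of 13 such genes 11 were seen, and Xcr1 and Batf3 were at 0. The 13 summed to 2727 CPM, against 526 CPM in B cells, 185 in T cells and 9016 in dendritic-like cells. This sum includes Cst3, with 504 UMIs in the members, which the selection of dendritic-like cells required. Cd209a was in 26 members and Clec10a in 34, while Mgl2 had 5 UMIs, Naaa 3 and Zbtb46 2. Of 5 plasma cell genes 4 were seen, at a summed 807 CPM against 550 CPM in B cells. In the members Xbp1 had 158 UMIs, Mzb1 62, Sdc1 16 and Jchain 3. The part of these genes in the results was not tested. Of 7 natural killer genes 4 were seen, of 6 erythroid genes all 6, and of 5 mast cell or basophil genes only Mcpt8 (2 UMIs). The neutrophil granule gene Ngp was at 206 CPM in pDC, 257 in B cells, 220 in dendritic-like cells and 216 in T cells, against 23621 in neutrophils. The summed level of 10 neutrophil genes in the members ran from 2267 to 2863 CPM in Mono mice and from 1620 to 20402 CPM in Mono+MCTR3 mice. This sum includes S100a8 (1002 UMIs in the members) and S100a9 (655 UMIs), which the rule limited. S100a8 and S100a9 exceeded 1% of UMIs in 3 members, all from Mono+MCTR3 mice. That group gave 35 of the members and Mono mice 16, and a difference between groups in this count was not tested.

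**Figure D1:**
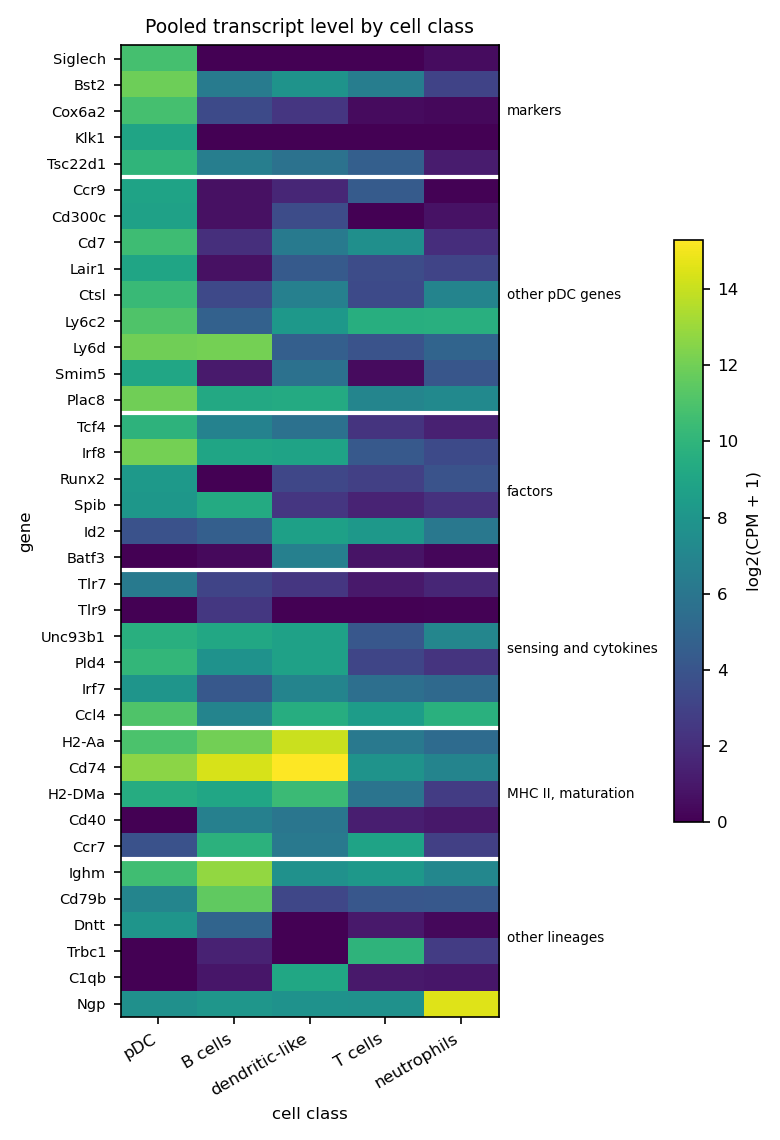
Heatmap of pooled transcript levels, as log2(CPM + 1), for 37 genes (rows, grouped by role) in pDC, B cells, dendritic-like cells, T cells and neutrophils (columns). Siglech and Klk1 are bright in pDC and at or near 0 elsewhere, Ly6d is shared with B cells, Cd74 is brightest in dendritic-like cells, and Ngp is at a like level in the 4 classes other than neutrophils.

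Bst2, Cox6a2 and Tsc22d1 were found in the members of every mouse, as was Siglech by the rule, and Klk1 in those of 6 of 8 mice. Siglech (chr7:55768178-55778925, plus strand, GRCm38) had a level per mouse from 1061 to 2341 CPM with a median of 1736 over 8 mice, and was at 0 in B cells, dendritic-like cells and T cells by their selection. Bst2 (chr8:71534255-71537456, minus strand), which encodes the tetherin recognised by pDC antibodies, was found in all 51 members. Its level per mouse ran from 2740 to 4742 CPM with a median of 4343, against 21.9 to 89.0 with a median of 78.5 in B cells. The lowest pDC level therefore lay above the highest B cell level. Bst2 was higher in pDC by 5.64 ± 0.17 (SE) on the log2 scale against B cells and by 4.35 ± 0.23 against dendritic-like cells (adjusted p = 4.8e-17 and 2.1e-07, edgeR's quasi-likelihood test with the mouse as a block, 8 and 6 mice).

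Cox6a2 (chr7:128205435-128206387, minus strand) encodes the muscle and heart form of a cytochrome c oxidase subunit, and was seen in 46 of 51 members. The level per mouse was 1373 to 3014 CPM with a median of 1785 in pDC and 0 to 32.6 CPM in B cells. Cox6a2 was 7.45 ± 0.31 higher on the log2 scale than in B cells (adjusted p = 5.2e-15, edgeR's quasi-likelihood test). Against dendritic-like cells, which held 2 Cox6a2 UMIs, the pooled ratio was 406 (exact 95% counting interval 112 to 3363). Other subunits of the same enzyme had smaller differences. Of 12 tested subunits 3 were higher than in B cells, Cox6a2, Cox5a (+0.50, a call lost under 11 of 18 alternatives) and Cox8a (+0.37, lost under 13 of 19), and none was lower. Over all genes 19.0% were higher, so the count lies near that background. Cox6a1, the widely expressed form of the same subunit, differed by -0.01 from B cells and by 0.07 from dendritic-like cells on the log2 scale. Against dendritic-like cells Cox6a2 was higher and Cox6b1 lower (-0.60) among 12 tested, beside 17.8% and 16.9% over all genes.

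Tsc22d1 (chr14:76414961-76507765, plus strand), a transcription regulator of the TSC22 family, was seen in 48 of 51 members at 795 to 2313 CPM per mouse, with a median of 995. B cells held 60.6 to 152 CPM. The difference was 3.51 ± 0.16 on the log2 scale against B cells and 4.36 ± 0.33 against dendritic-like cells (adjusted p = 3.2e-14 and 1.1e-06, edgeR's quasi-likelihood test). Of the other 3 family members Tsc22d3, a glucocorticoid-induced gene, was lower than in B cells by -1.35 on the log2 scale.

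Klk1 (chr7:44225360-44229618, plus strand) encodes tissue kallikrein, a serine protease that releases kinins. It was seen in 24 of 51 members (47.1%, exact 95% interval 32.9 to 61.5%) and in no cell of the other 4 classes. Per mouse the Klk1 UMIs were 28, 6, 0 and 1 in Mono mice 1 to 4, and 23, 80, 7 and 0 in Mono+MCTR3 mice 1 to 4. One mouse in each group thus held none, and these had 3 and 5 members. The pooled level of 489 CPM was at least 559-fold higher than in B cells and at least 76.2-fold higher than in dendritic-like cells, taking 3 UMIs over the class as the limit for a count of 0. Klk1 did not pass the filter on low counts in the comparisons with B cells and dendritic-like cells, and was not tested there.

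The stretch of 250 bases before the RefSeq start of 3 of these genes is shown for the E-box CAGGTG, the kind of short motif that TCF4 and related factors bind. The sequences are from GRCm38.p6, with CAGGTG on either strand in capitals: Siglech at chr7:55767934-55768183 (plus strand), Bst2 at chr8:71537473-71537722 (minus strand) and Klk1 at chr7:44225110-44225359 (plus strand).
Siglech: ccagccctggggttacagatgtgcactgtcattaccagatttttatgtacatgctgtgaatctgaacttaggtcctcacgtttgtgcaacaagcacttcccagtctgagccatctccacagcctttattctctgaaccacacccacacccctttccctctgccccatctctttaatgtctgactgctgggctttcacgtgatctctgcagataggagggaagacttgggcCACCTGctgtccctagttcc
Bst2: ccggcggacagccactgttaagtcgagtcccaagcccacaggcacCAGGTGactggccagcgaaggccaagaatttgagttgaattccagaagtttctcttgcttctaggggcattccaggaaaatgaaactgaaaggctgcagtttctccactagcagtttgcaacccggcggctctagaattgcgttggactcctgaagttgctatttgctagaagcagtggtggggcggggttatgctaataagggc
Klk1: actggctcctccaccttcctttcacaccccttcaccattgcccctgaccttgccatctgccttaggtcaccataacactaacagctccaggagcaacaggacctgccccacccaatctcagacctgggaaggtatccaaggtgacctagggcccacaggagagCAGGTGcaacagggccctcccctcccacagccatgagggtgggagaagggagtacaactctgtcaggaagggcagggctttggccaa
In Siglech the first motif base lay 20 bases before the start, in Bst2 205 and in Klk1 87 bases before it. Of the 17 genes looked up (Siglech, Klk1 and the 15 genes named below as furthest above both other classes), 13 had a RefSeq promoter, and 6 of these (46.2%) held CAGGTG: Siglech, Bst2, Klk1, Cd300c, Irf8 and Xbp1. Among 27025 genes of the same table the share was 19.4%. A gene counted when any of its windows matched, and the 13 genes had 20 windows against 32851 for the 27025 genes. In Irf8 the motif lay in a window other than that at its annotated start. A match says only that the letters occur in this window.

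Against B cells, 1677 genes were tested, 319 (19.0%) were higher in pDC and 323 (19.3%) were lower. With the size factors of DESeq2, which moved the median of all genes by -0.16 on the log2 scale, the split was 234 higher and 408 lower. Against dendritic-like cells, of which 6 mice held any, 567 genes were tested, 101 (17.8%) were higher and 96 (16.9%) lower. Scaling by library totals moved that median by 0.11. The dendritic-like class was chosen on MHC class II and Cst3, and it also held macrophage transcripts such as C1qb at 539 CPM and Lyz2 at 9330 CPM. Of 542 genes tested in both comparisons, 69 were higher in pDC in both and 20 lower in both. The comparisons share the pDC libraries. A gene listed below could pass the filter on low counts through the class in which it was high. The direction of such a gene was then fixed. A count below that holds such genes describes them and is no separate support.

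The 15 genes furthest above both classes were Cox6a2, Cd300c, Bst2, Cd7, Ctsl, Tsc22d1, Ly6c2, Smim5, Tcf4, Nucb2, Irf8, Dap, Mvb12a, Plac8 and Xbp1. Each was higher in pDC than in B cells in 8 of 8 mice and than in dendritic-like cells in 6 of 6 mice. The genes were chosen for their size of change in these same mice, so this count describes them and is no separate support. Cd7, a surface glycoprotein better known from T and natural killer cells, was at 1090 to 2365 CPM per mouse (median 1504) against at most 16.8 CPM in B cells and 220 in dendritic-like cells. The differences were 8.74 ± 0.33 and 4.25 ± 0.46 on the log2 scale (adjusted p = 8.8e-16 and 1.9e-05, edgeR's quasi-likelihood test). Ctsl encodes cathepsin L, a lysosomal protease, and was higher by 6.88 ± 0.24 and 3.83 ± 0.50. Cd300c, an activating receptor of the CD300 family, was at 206 to 523 CPM per mouse and in 43 of 51 members. With 2 UMIs in B cells, its pooled ratio was 741 (exact 95% counting interval 201 to 6183).

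Of a further list of 30 pDC genes, 29 were seen in the members. Against B cells 16 of 17 tested were higher and 1 lower, with a median log2 difference of 5.97 beside -0.06 over all genes tested. Ccr9, Cd300c and Lair1 had 2 UMIs each in B cells, Smim5 4 and Cd7 11. These genes passed the filter on low counts through pDC, which fixed their direction. Against dendritic-like cells 13 of 14 were higher and none lower, with a median of 3.28 beside -0.01. The same limit holds there for Atp1b1, with 1 UMI in dendritic-like cells. The list was chosen with earlier results of these data known. The shares higher over all genes were 19.0% against B cells and 17.8% against dendritic-like cells. Lair1, an inhibitory collagen receptor, was at 218 to 864 CPM per mouse against at most 1.71 CPM in B cells. Ccr9, the receptor for the gut and thymus chemokine CCL25, was in 39 members at a pooled 466 CPM, with 2 UMIs in all B cells and a ratio of 799 (counting interval 217 to 6661). Ly6d, an early marker of lymphoid progenitors, was the 1 gene lower than in B cells. Its pooled level was 4041 CPM in pDC, 4354 in B cells and 23.5 in dendritic-like cells, with log2 differences of -0.44 ± 0.13 and 6.79 ± 0.39.

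**Figure D2:**
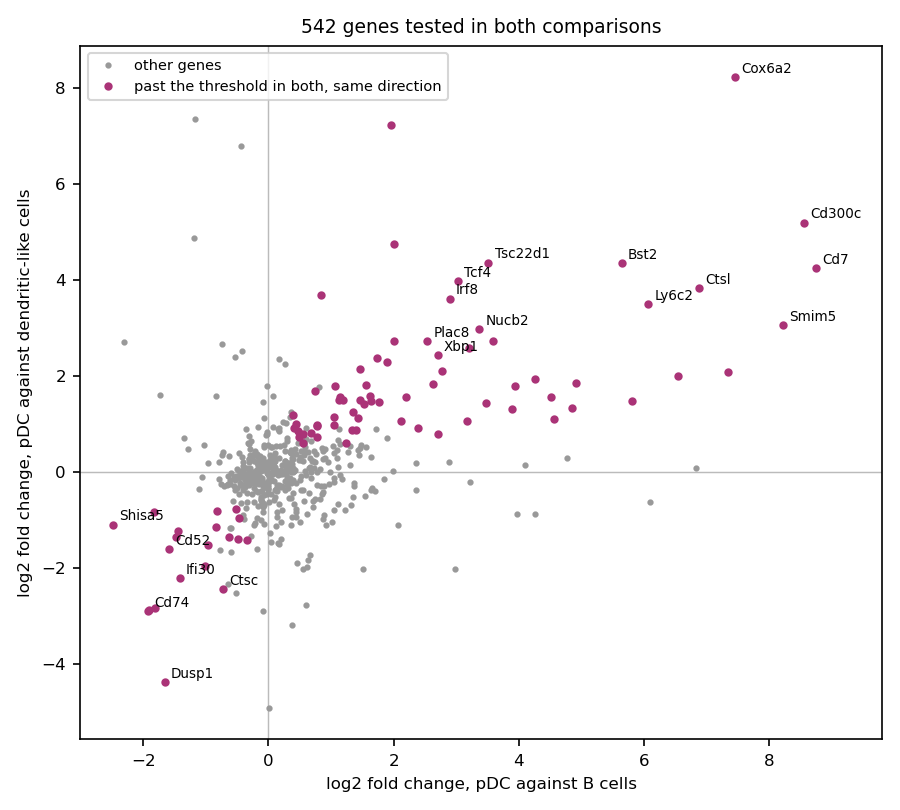
Log2 fold change of pDC against B cells (x axis) and against dendritic-like cells (y axis) for the 542 genes tested in both comparisons. Coloured points are the 69 genes higher and the 20 genes lower in both. Cox6a2 lies furthest out at 7.45 and 8.22, and Cd74 lies at the lower left at -1.92 and -2.90.

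The transcription factors known for the pDC lineage were mostly high. Tcf4 was in all 51 members at 661 to 1210 CPM per mouse with a median of 869, against 53.9 to 153 CPM in B cells and 0 to 88.1 in dendritic-like cells. It was higher by 3.03 ± 0.17 and 3.97 ± 0.31 on the log2 scale (adjusted p = 7.0e-13 and 1.3e-06, edgeR's quasi-likelihood test). Irf8, an interferon regulatory factor shared with type 1 conventional dendritic cells, was in all members at 2645 to 5396 CPM and higher by 2.90 ± 0.13 and 3.61 ± 0.51. Of 7 factors tested against B cells, 5 were higher (Tcf4, Irf8, Bcl11a, Runx2 and Zeb2) and Spib was lower by -1.39 ± 0.22, with a median of 1.03. The shares over all genes were 19.0% higher and 19.3% lower. Spib, an Ets factor that B cells also use, was at 270 CPM in pDC and 638 CPM in B cells, and 2 UMIs were found in dendritic-like cells. Runx2 was in 41 members at 304 CPM and at 0 in B cells, a level at least 347-fold higher. Runx2 therefore passed the filter on low counts through pDC, which fixed its direction. Against dendritic-like cells 2 of 3 tested factors were higher, beside 17.8% over all genes. None of the 6 regulators of conventional dendritic cells was tested against dendritic-like cells, and their values are a description. Id2, an inhibitor of E proteins, was in 3 members at 13.5 CPM against 417 CPM in dendritic-like cells, and Batf3 was at 0 against 98.4 CPM, at least 9.72-fold lower. Zbtb46 had 2 UMIs in pDC and 4 in dendritic-like cells, a ratio of 0.789 (exact 95% counting interval 0.0713 to 5.50). Klf4 was the 1 regulator tested against B cells, with a difference of -0.14 that did not pass.

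Most tested genes of nucleic acid sensing were higher in pDC than in both classes, although the receptors themselves were thinly sampled. Of 19 genes, 6 of 9 tested were higher than in B cells and none lower (median 0.91), beside 19.0% and 19.3% over all genes. Against dendritic-like cells 5 of 5 were higher (median 1.55), beside 17.8% over all genes. Unc93b1, the chaperone that brings Toll-like receptors to endosomes, was at 648 to 1373 CPM per mouse against 413 to 714 in B cells, so the ranges overlapped, and was higher by 0.45 ± 0.16 and 0.99 ± 0.21. The call against B cells was lost under 12 of 19 alternatives. Pld4, a lysosomal nuclease that degrades single-stranded nucleic acids, was higher by 2.21 ± 0.23 and 1.55 ± 0.24. Ctsb, a lysosomal protease, was higher by 4.26 ± 0.14 and 1.94 ± 0.24, with adjusted p from 1.6e-16 to 0.00031 for these last 2 genes in edgeR's quasi-likelihood test. Tlr7 was seen in 17 of 51 members at 74.3 CPM, against 1.73% of B cells and 0.456% of neutrophils, and 1.96% of members after each cell was thinned to 1000 UMIs. Tlr9 had a UMI in 0 of 51 cells, which allows a share of up to 5.88% of cells with a UMI and sets no limit on cells expressing the gene. B cells held 4.67 CPM of Tlr9, below the 10.1 CPM that 3 UMIs would give in pDC, so a like level could not have been seen at this depth. Irf7, the factor that drives type I interferon transcription, was in 28 members at 250 CPM against 17.5 in B cells and 120 in dendritic-like cells.

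Interferon transcripts themselves were not found in the members. All 20 interferon genes listed were at 0 UMIs, which allows up to 5.88% of the members to carry a UMI of each and sets no limit on cells expressing it. Of 9 inflammatory cytokine genes 5 were seen, and Tnf in only 1 member. Ccl4, a chemokine that draws T cells and monocytes, was the exception at 1136, 2078, 771 and 4855 CPM in the Mono mice and 1476, 1958, 7113 and 2092 CPM in the Mono+MCTR3 mice. The groups overlapped. B cells ranged from 13.5 to 288 CPM, and the pooled level was 346 CPM in T cells and 822 CPM in neutrophils. Ccl4 was in 70.6% of members, 10.3% of B cells and 26.2% of neutrophils. After thinning to 1000 UMIs the shares were 51.0%, 5.21% and 20.3%. It was higher in pDC by 4.51 ± 0.32 against B cells and 1.55 ± 0.30 against dendritic-like cells (adjusted p = 6.6e-11 and 0.0015, edgeR's quasi-likelihood test). Ccl3 was in 8 members.

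On the receiving side of interferon, few genes could be tested. Ifnar2, a subunit of the type I interferon receptor, was at 145 to 631 CPM per mouse in pDC and 14.6 to 53.3 CPM in B cells, higher by 2.91 ± 0.25 on the log2 scale (adjusted p = 2.5e-09, edgeR's quasi-likelihood test). Among 4 tested receptor and signalling genes, 3 were higher than in B cells, including Ifnar2 and Ifnar1 (+1.18, but -0.23 in Mono mice alone), and Jak1 was lower (-1.21), with a median of 1.00. Over all genes 19.0% were higher and 19.3% lower. Of 28 interferon-stimulated genes listed, 27 were in the tables and 22 were seen in the members. Against B cells 2 were tested and 1 was higher. Against dendritic-like cells 2 were tested and Ifitm3, an antiviral membrane protein, was lower by -5.29 ± 0.52, at 101 CPM in pDC and 2671 CPM in dendritic-like cells. The medians were 0.23 and -2.67.

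Siglec-H signals through the adaptor DAP12, encoded by Tyrobp. Tyrobp was at 2622 to 7745 CPM per mouse in pDC with a median of 5395, against 138 to 320 CPM in B cells and 1935 to 2741 CPM in dendritic-like cells. It was higher by 4.55 ± 0.13 and 1.09 ± 0.18 on the log2 scale (adjusted p = 3.8e-17 and 0.00039, edgeR's quasi-likelihood test). Fcer1g, the related adaptor of Fc receptors, lay between the classes, at +4.25 ± 0.23 against B cells and -0.89 ± 0.15 against dendritic-like cells. In the list of 12 adaptor and ITAM signalling genes, 2 of 8 tested were higher than in B cells and 2 were lower, the kinase Lyn (-1.05) and the phosphatase Ptpn6 (-0.73), with a median of -0.45. Over all genes 19.0% were higher and 19.3% lower, so these counts lie near the background. Against dendritic-like cells 1 of 3 was higher and 1 lower, with a median of 0.40, beside 17.8% and 16.9% over all genes.

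Most tested genes of the secretory pathway were higher in pDC than in B cells. Against B cells 17 of 26 tested were higher and 1 lower (median 0.93 beside -0.06 over all genes tested), and against dendritic-like cells 7 of 13 were higher and none lower (median 0.60 beside -0.01). Among these 7, the call of Sec61g against dendritic-like cells was lost under 6 of 16 alternatives and that of Sec11c under 5 of 15. The shares higher over all genes were 19.0% against B cells and 17.8% against dendritic-like cells. Xbp1, the factor of the unfolded protein response that builds secretory capacity, was at 250 to 981 CPM per mouse against 43.8 to 147 CPM in B cells, higher by 2.71 ± 0.18 and 2.44 ± 0.27 (adjusted p = 1.5e-11 and 1.9e-05, edgeR's quasi-likelihood test). Sec61b, a subunit of the translocon through which new proteins enter the endoplasmic reticulum, was higher than in B cells by 1.48 ± 0.15. Manf, a factor secreted under endoplasmic reticulum stress, was higher by 1.52 ± 0.21 and 1.42 ± 0.36. Mzb1, an endoplasmic reticulum protein of B and plasma cells, was the 1 lower gene, by -1.24 ± 0.24 against B cells. Of 5 plasma cell genes Prdm1 was at 0 in pDC, and Xbp1 and Mzb1 were the 2 tested against B cells.

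Most tested MHC class II genes were lower in pDC than in both other classes. Cd74, the invariant chain of MHC class II, was at 5000, 12561, 5256 and 5727 CPM in Mono mice and 2710, 7948, 13601 and 3005 CPM in Mono+MCTR3 mice. B cells held 19359 to 24706 CPM and dendritic-like cells 36329 to 49165 CPM, so no pDC value reached either range. The differences were -1.92 ± 0.19 and -2.90 ± 0.23 on the log2 scale (adjusted p = 2.0e-08 and 1.6e-06, edgeR's quasi-likelihood test). Of 10 MHC class II presentation genes tested against B cells 7 were lower, beside 19.3% over all genes, with a median of -1.28. The 2 higher, beside 19.0% over all genes, were H2-DMb1 (+0.60, a call lost under 10 of 18 alternatives) and the protease Ctss (+1.01). The largest differences of the 10 were those of H2-DMb2 (-4.62 ± 0.28) and H2-Ob, both lower. With 11 and 3 UMIs in the members, both passed the filter on low counts through B cells, which fixed their direction. H2-Ob had 3 UMIs in the members and a pooled level 34.6 times lower than in B cells (counting interval 11.8 to 168). Against dendritic-like cells, which were chosen on H2-Aa, H2-Ab1 and H2-Eb1, 4 of 4 other genes were lower with a median of -2.09. The share lower over all genes was 16.9%.

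Homing genes went in different directions, and few maturation genes could be tested. Of 10 co-stimulation and maturation genes 6 were seen. The 3 tested were lower than in B cells: Cd83 (-4.68 ± 0.43), the lymph node homing receptor Ccr7 (-6.02 ± 0.34), and Cd40, which was at least 9.93-fold lower. The members held 7 UMIs of Cd83, 4 of Ccr7 and 0 of Cd40. These 3 genes therefore passed the filter on low counts through B cells, which fixed their direction, and say nothing of the rest of the list. Among 7 homing genes tested 4 were higher than in B cells and 3 lower, with a median of 1.71, beside 19.0% and 19.3% over all genes. Of these, S1pr1 (0 UMIs in the members) and Ccr7 passed the filter on low counts through B cells. Ccr9 (2 UMIs in B cells) passed it through pDC. The direction of these genes was thereby fixed. Selplg, the selectin ligand PSGL-1, was higher by 3.90 ± 0.17 and 1.30 ± 0.24. Itgb7, an integrin chain of gut homing, was higher than in B cells by 1.71 ± 0.29. Adjusted p for these differences ran from 1.1e-14 to 0.00099 in edgeR's quasi-likelihood test. Cxcr4, the CXCL12 receptor, was lower than in B cells by -1.89 ± 0.33, and S1pr1, the receptor for egress into lymph, was at 0 and at least 19.8-fold lower. Against dendritic-like cells 2 of 5 homing genes were higher and 2 lower, Ccr2 (-2.11) and Itgb2 (-1.30), beside 17.8% and 16.9% over all genes.

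All 10 early lymphoid genes listed were seen in the members, some with few UMIs. Rag1 had 1 UMI, Rag2 2 and Kit 2, and the 14 UMIs of Cd34 were all in Mono+MCTR3 mouse 4. Ighm, the constant region of IgM heavy chain, was in all 51 members at 1444 to 1822 CPM per mouse with a median of 1559. B cells held 6321 to 8405 CPM and dendritic-like cells 88.6 to 499 CPM, and the 3 ranges did not overlap. The differences were -2.31 ± 0.09 and 2.70 ± 0.29 on the log2 scale (adjusted p = 3.4e-15 and 1.9e-05, edgeR's quasi-likelihood test). Dntt, the terminal transferase of immunoglobulin rearrangement, was in 27 members and 0.865% of B cells, higher by 3.15 ± 0.58 than in B cells and at least 38.4-fold higher than in dendritic-like cells, where it was at 0. Of 10 genes of this list 2 were tested against B cells and 1 against dendritic-like cells. The B cell genes themselves were lower, 10 of 10 tested, but they passed the filter on low counts through the B cells. Cd79b, a signalling chain of the B cell receptor, was seen in 26 members at 125 CPM against 2999 CPM in B cells.

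The 15 genes furthest below both classes were Cd74, Cotl1, Junb, Dusp1, Cd52, Ifi30, Rgs2, Msn, Shisa5, Aldoa, Fam49b, H3f3a, Actr3, Tmsb10 and Ctsc. Cotl1, Msn, Actr3 and Tmsb10 act on the actin cytoskeleton, and Ifi30 and Ctsc act in lysosomes. Cd52, a small surface glycoprotein of leukocytes, was at 774 to 1497 CPM per mouse against 2304 to 3396 CPM in B cells and 1658 to 3344 CPM in dendritic-like cells, lower by -1.58 ± 0.13 and -1.61 ± 0.19 (adjusted p = 5.0e-10 and 2.8e-05, edgeR's quasi-likelihood test). Junb and Dusp1 belong to the immediate early genes, which respond to stimulation and to tissue dissociation. Of 12 tested immediate early and heat shock genes, Fos and Btg2 were higher than in B cells and Junb, Jund and Dusp1 lower (median -0.03), beside 19.0% higher and 19.3% lower over all genes. Against dendritic-like cells 1 of 11 was higher and 5 were lower (median -1.11), beside 17.8% and 16.9%.

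The members were not uniform. H2-Aa, H2-Ab1, H2-Eb1 and Cd74 together made up between 0 and 4.57% of a member's UMIs, with a median of 0.549%. No member lay between 0.556% and 0.969%, and 20 lay below 0.1%. A limit of 0.9%, set after seeing these values, left 24 members above (median 2.37%) and 27 below (median 0.0368%). The medians were 3.60% in B cells, 8.37% in dendritic-like cells and 0 in T cells. Members below the limit were sampled more deeply, with medians of 5797 UMIs and 2093 genes against 5296.5 UMIs and 1818 genes above it, and highest values of 10066 and 6665 UMIs. The values that follow describe the members and carry no test.

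Klk1 was found in 18 of 24 members above the limit and 6 of 27 below, at 995 and 107 CPM. Cd209d, a C-type lectin gene, was found in 15 and 7, and the immunoglobulin light chain gene Iglc3 in 24 and 8. All of Klk1, Cd209d and Iglc3 were present in 13 members above the limit and 1 below, and none of them in 0 above and 14 below. Ccr9 was found in all 24 members above the limit and in 15 of those below. Tlr7 was found in 13 and 4, and Cd4 in 8 and 2. Bst2, Tcf4 and Irf8 were present in every member on both sides, as was Siglech by the rule. Stmn1, a microtubule regulator high in dividing cells, had the reverse distribution, in 2 members above and 9 below.

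The members above and below the limit numbered 3 and 5 in Mono mouse 1, 2 and 0 in mouse 2, 2 and 1 in mouse 3, and 1 and 2 in mouse 4. In Mono+MCTR3 mice 1 to 4 the numbers were 1 and 6, 11 and 9, 3 and 0, and 1 and 4. Both kinds of member were thus found in both groups, and 11 of the 24 above the limit came from 1 mouse.

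**Figure D3:**
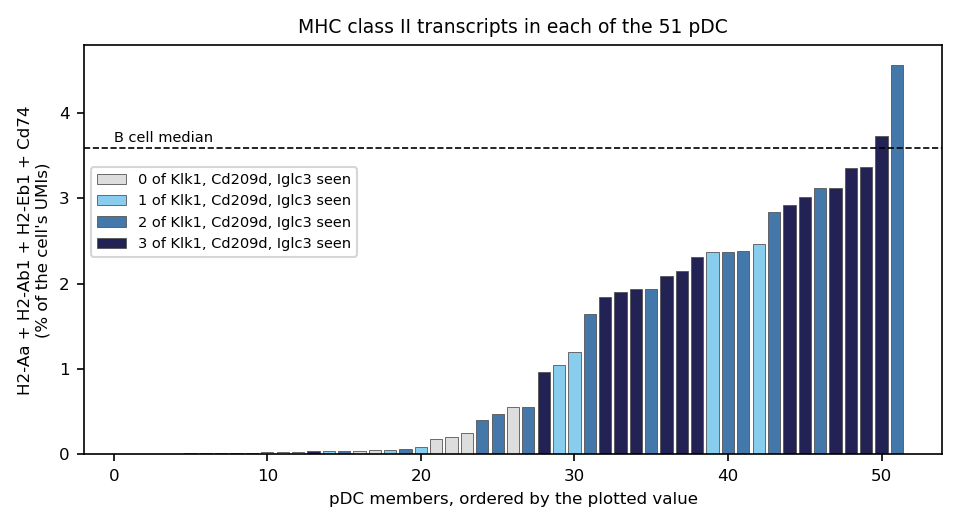
Percent of UMIs from H2-Aa, H2-Ab1, H2-Eb1 and Cd74 in each of the 51 pDC, ordered by value (1 bar per cell), with shading for how many of Klk1, Cd209d and Iglc3 were seen in the cell. No bar lies between 0.556% and 0.969%, the dark bars (all 3 genes seen) are mostly on the right, and the dashed line is the B cell median of 3.60%.

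Whether transfer of MCTR3-treated monocytes altered the number of pDC in the joint was addressed by their share per mouse. In Mono mice 1 to 4 the share was 8 of 1153 cells (0.694%), 2 of 1578 (0.127%), 3 of 1178 (0.255%) and 3 of 1332 (0.225%). In Mono+MCTR3 mice 1 to 4 it was 7 of 1337 (0.524%), 20 of 1913 (1.05%), 3 of 1007 (0.298%) and 5 of 758 (0.660%). The groups overlapped, with Mono mouse 1 above 3 of the 4 Mono+MCTR3 mice. The mean was 0.325% ± 0.252 (SD, n = 4) in Mono mice and 0.632% ± 0.314 in Mono+MCTR3 mice, and the difference of 0.307 percentage points was within the spread between mice (p = 0.171, two-sided exact permutation test, where 4 against 4 mice can reach 0.0286). With neutrophils left out of the denominator the means were 0.909% and 1.93% (p = 0.0857, exact permutation test). When each cell was thinned to 1000 UMIs the difference fell to 0.0801 percentage points. There were 2.73 ± 1.28 pDC per 100 B cells in Mono mice and 5.50 ± 2.59 in Mono+MCTR3 mice (p = 0.114, exact permutation test). Without Mono mouse 1 the difference in share was 0.429 percentage points and without Mono+MCTR3 mouse 2 it was 0.169.

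**Figure D4:**
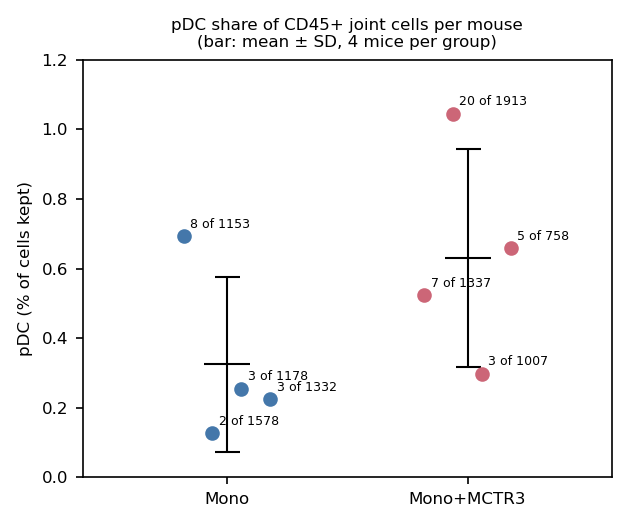
pDC as a percent of the cells kept in each mouse (points, labelled with their counts), with the mean and SD of the 4 mice per group. The Mono mice run from 0.127% to 0.694% and the Mono+MCTR3 mice from 0.298% to 1.05%, and the ranges overlap.

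Expression within the members was then compared between groups on UMIs summed per mouse. A sum over members cannot tell fewer expressing cells from less RNA per cell. Of 363 genes tested, 0 (0%) passed an adjusted p of 0.05 in edgeR's quasi-likelihood test, 26 had an unadjusted p under 0.05, and DESeq2 likewise called 0, with 21 under 0.05. The likelihood ratio test of edgeR, which the study used, called 4: Hmgb2, Atp5j2, Klf2 and Xbp1. Values did not overlap between groups for 15 of 363 genes (4.13%), these 4 among them. The 4 tested markers (median log2 difference -0.37) and each other list had no called gene, and all 5 markers overlapped between groups. The 8 tested immediate early and heat shock genes had a median log2 difference of -0.69 beside -0.01 over all genes.

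The genes with the largest differences were chosen by size among genes with at least 50 UMIs in the members. Klf2, a factor of lymphocyte quiescence and trafficking, was at 4341, 7745, 5186 and 3486 CPM in Mono mice and 992, 1975, 2932 and 2033 CPM in Mono+MCTR3 mice. The log2 difference of Mono+MCTR3 against Mono was -1.41 ± 0.34 (adjusted p = 0.246, edgeR's quasi-likelihood test). In B cells of the same libraries Klf2 had a mean of 6710 ± 1842 CPM in Mono mice and 3868 ± 633 CPM in Mono+MCTR3 mice, and the ranges did not overlap there either. Whether this difference is shared by all cells of a library was not tested, and each group's table was aggregated on its own. Xbp1 was at 841, 661, 981 and 685 CPM in Mono mice and 435, 475, 250 and 295 CPM in Mono+MCTR3 mice, a difference of -1.04 ± 0.25 (adjusted p = 0.246, edgeR's quasi-likelihood test). In B cells the Xbp1 means were 105 and 59.2 CPM with overlapping ranges. Rnf187 (-1.09) and Jund (-0.95) also had lower means in Mono+MCTR3 mice, and their groups overlapped.

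Hmgb2, a chromatin protein high in dividing cells, was at 182, 94.4, 140 and 0 CPM in Mono mice and 1113, 450, 499 and 442 CPM in Mono+MCTR3 mice, a difference of 2.27 ± 0.56 (adjusted p = 0.246, edgeR's quasi-likelihood test). Every Mono+MCTR3 value was above every Mono value. Its UMIs were concentrated in few cells. Of 17 cell division genes, 4 members held over 20 UMIs in all, a limit set after seeing the values. All 4 were from Mono+MCTR3 mice (1 in mouse 1, 1 in mouse 2 and 2 in mouse 4). Most members came from that group, 35 against 16 from Mono mice. Whether the groups differ in the share of such members was not tested. These 4 members held 276 of the 388 UMIs of the list and 74 of the 134 Hmgb2 UMIs. Hmgb2 is itself 1 of the 17 genes, so leaving these cells out lowers it by construction, although the other 16 genes alone also passed 20 UMIs in the same 4 members. Without them Hmgb2 was at 89.4, 313, 499 and 167 CPM in the Mono+MCTR3 mice, and the groups overlapped. All 4 carried Siglech at 2 to 9 UMIs, of which the rule required 2, and Bst2 at 1 to 17 UMIs, and lay below the MHC class II limit. The member with 1 Bst2 UMI, from Mono+MCTR3 mouse 4, held 3 UMIs of Cox6a2 and 17 of Tsc22d1. It held none of Klk1, Ccr9, Ly6c2 and Ly6d.

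Atp5j2, a subunit of the mitochondrial ATP synthase, was at 114, 283, 70.1 and 311 CPM in Mono mice and 532, 417, 499 and 560 CPM in Mono+MCTR3 mice, a difference of 1.50 ± 0.39 (adjusted p = 0.275, edgeR's quasi-likelihood test). In B cells its means were 323 and 342 CPM with overlapping ranges. Retnlg, a neutrophil gene, differed by 1.45 ± 0.68 and by 0.46 when the 3 members with S100 transcripts above 1% of UMIs were left out. The last of the 5 higher genes were the histone variant gene H2afz (+1.22) and the translation factor gene Eif4a1 (+1.07), both with overlapping groups.

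**Figure D5:**
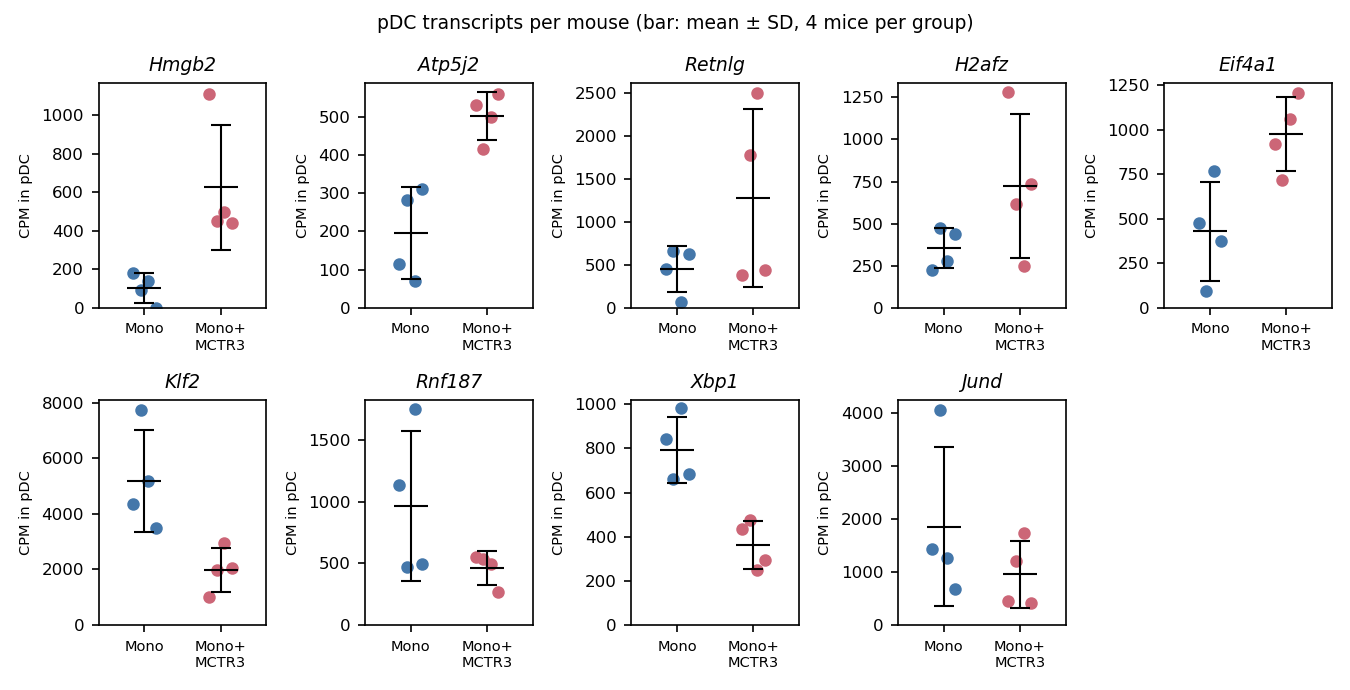
CPM in pDC per mouse (points) for 9 of the genes with the largest differences, with mean and SD of 4 mice per group. The groups are apart for Hmgb2, Atp5j2, Klf2 and Xbp1 and overlap for the other 5, and no gene passed the adjusted threshold in edgeR's quasi-likelihood test.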

How the data were processed

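For each group the authors deposited 1 table of raw UMI counts (genes by barcodes), which joins its 4 libraries. Per the labels and the submitters' processing notes, 10x Genomics 3′ libraries were processed with Cell Ranger on GRCm38, and edgeR was used, both without a version in the sources used here. Of 10538 barcodes 10256 were kept, which had 250 to 3000 genes, 500 or more UMIs and no more than 5% of UMIs from mitochondrial genes. B cells had at least 2 Cd79a UMIs, T cells at least 2 UMIs of Cd3d, Cd3e, Cd3g and Trac, dendritic-like cells at least 0.5% of UMIs from H2-Aa, H2-Ab1 and H2-Eb1 with at least 2 Cst3 UMIs, and neutrophils at least 5% of UMIs from S100a8 and S100a9. Siglech was 0 in B, T and dendritic-like cells. Doublets were looked for with Scrublet (scanpy 1.11.5) and left in.

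Sums of UMIs for each class within a mouse were fitted with edgeR 4.0.16 (R 4.3.3, filterByExpr, TMM, glmQLFit and glmQLFTest), with the mouse as a block between classes, and Benjamini-Hochberg adjustment over all genes tested at 0.05. Genes used to choose a class stayed in library sizes and out of tests. A standard error is the log2 change divided by the root of F. Shares were compared with exact permutation tests, and shares of cells carry exact binomial intervals at 95%, which like the limit of 3 counts cover counting error only. CPM values are UMIs per 1000000 UMIs of the cells summed. DESeq2 1.42.0, the likelihood ratio test, other limits, thinning to 1000 UMIs and leaving out each mouse were alternatives. In simulated counts of 366 genes, 122 were changed and all genes were drawn with the same dispersion. There the comparison between groups recovered 98.4% of genes changed by 2 on the log2 scale and 63.3% of those changed by 1. It made 2 false calls of 101. The data need not meet these settings, so the share of real changes that the comparison would recover is not known.

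The genes named were the markers, the members of the gene lists, the 15 genes furthest above and below both classes (by the smaller of the 2 changes, past the threshold in both), and, between groups, the 5 genes that changed most either way. Some genes that met these rules are not reported here. The members and lists were chosen with earlier results of these data known. Gene positions are from GENCODE vM21 and promoters from RefSeq (GRCm38.p6). Other software was Python 3.11.15, numpy 2.4.6, pandas 2.3.3, scipy 1.17.1 and matplotlib 3.10.9.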

Additional observations from a re-analysis of the deposited data

Results flagged for a closer look

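The Hmgb2 level in pDC of Mono+MCTR3 mouse 1 was 1113 CPM, far from the other 3 Mono+MCTR3 mice at 442 to 499 CPM. The gap to the nearest of them was 0.915 of the whole range of the group. Of 32 such groups of 4 mice looked at, this was the 1 in which a mouse stood this far apart, and chance alone gives about 1 in 20. Of the Hmgb2 UMIs of that mouse, 43 were in 1 member with 93 UMIs of the cell division list, which includes Hmgb2.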

How the results depend on the processing

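The share of pDC did not pass under any alternative that kept all mice. Leaving out a mouse leaves 3 against 4, where the test is coarser. Without Mono mouse 1 every Mono+MCTR3 share was above every Mono share, and p was still 0.0571 in the exact permutation test. That alternative therefore cannot decide the question, and no conclusion is drawn from the p-values with a mouse left out. With a Siglech limit of 1 or 3 UMIs, a mitochondrial limit of 10%, no upper limit on genes, doublets removed or members limited to 1% of S100 transcripts (added after seeing the data), the difference ran from 0.227 to 0.331 percentage points, and leaving out each mouse gave 0.169 to 0.429 (p from 0.0571 to 0.343, exact permutation test). Between groups, edgeR called 7 genes with no filter on low counts and 4 with the likelihood ratio test, and 0 otherwise, including when each mouse was left out. Against B cells the 642 calls (319 higher, 323 lower) became 1931 (617, 1314) with no filter and 159 (69, 90) after thinning to 1000 UMIs, with fewer genes tested. In Mono mice alone 210 were lower, and leaving out each mouse gave 206 to 330 higher genes, the lowest without Mono+MCTR3 mouse 2, which held 20 of the 51 members. Against dendritic-like cells the 197 calls (101, 96) became 607 (213, 394) with no filter, 34 (22, 12) after thinning, 90 (51, 39) in Mono mice alone and 398 (189, 209) in Mono+MCTR3 mice alone. DESeq2 called 557 of the 642 genes called against B cells. Of the genes named, 3 changed sign: Cox8a (-0.15) and Unc93b1 (-0.0668) with no filter, which moved the median of all genes by -0.48, and Ifnar1 (-0.23) in Mono mice alone, all against B cells. In these 3 the cause was not tested. Cox8a, Unc93b1, Cox5a, H2-DMb1 and Ctsc lost their call against B cells under 10 to 13 of the 18 or 19 alternatives that tested them. No paired analysis was possible because the barcode suffixes that tell the mice apart are not tied to labelled mice, and the labels give no number that both groups share. Depth limits genes below 10.1 CPM in pDC, the level of 3 UMIs over all members.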
